A study of Homo sapiens with 6 samples.

Results

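The genes described here are the ZNF-numbered zinc finger genes of human chromosome 19. A gene was a member if its entry in the deposited table lay on chromosome 19 and its symbol was ZNF followed by digits and at most 1 letter. This gave 145 of the 14136 entries, against 222 genes with such symbols on all other chromosomes. The values come from Cal33, a human line derived from an oral squamous cell carcinoma, in 2 groups of 3 libraries. Vector cells carried an empty pSin-EF2 plasmid and CES2 cells carried pSin-EF2 with FLAG-tagged CES2, the carboxylesterase 2 enzyme that cleaves ester drugs and lipids. Both groups had been infected with lentivirus packaged in 293FT cells and selected with puromycin at 0.5 ug/ml, so the controls share infection and selection. The labels name neither clones nor separate infections behind the 3 libraries of a group. The p-values thus measure only the spread between these libraries, which may be technical.

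ZNF genes encode proteins with tandem C2H2 zinc fingers, short modules in which 2 cysteines and 2 histidines hold a zinc ion and the module contacts DNA. Many carry a KRAB domain in front of the fingers, which recruits the corepressor TRIM28 (KAP1) and through it the histone methyltransferase SETDB1, and many such proteins silence retrotransposons. Chromosome 19 holds large tandem arrays of these genes that arose by repeated duplication, so neighbours are often close copies of one another. Of the 145 members, 117 had a KRAB-type pattern in a GENCODE 29 coding sequence and 28 did not. By the longest coding sequence of each gene, the number of fingers ran from 0 in ZNF738 and 1 in ZNF428 to 31 in ZNF91, with a median of 11.

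Abundance was deposited as TPM, transcripts per 1000000 transcripts, which sets every library to nearly the same total and keeps no sequencing depth. No counting interval can therefore be given. The CES2 transcript, the gene the cells were made to overexpress, was at 45.6, 41.9 and 44.9 TPM with the empty vector and 2664, 1929 and 2294 TPM with CES2. It was the 1 gene among the 12210 tested that passed (limma, log2 fold change 5.66 ± 0.18, SE, adjusted p = 7.38e-06). All 9 squamous epithelial markers examined were listed, with a summed level of 4322 to 5611 TPM with the empty vector and 4243 to 5733 TPM with CES2. The means of single squamous markers over the 6 libraries ran from 1.98 to 1814 TPM, so the sum does not show every marker to be high. Of the fibroblast markers 1 of 5 was listed and of the leukocyte markers 1 of 4, with summed levels of 3.89 to 10.5 TPM and 5.47 to 11.6 TPM over all libraries. All 3 endothelial markers were listed, summing to 10.2 to 25.8 TPM with the empty vector and 11.2 to 20.5 TPM with CES2. Means of single endothelial markers ran from 0.287 to 16.1 TPM. In bulk RNA fewer cells of a type and less RNA per cell cannot be told apart.

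The members stood at low levels. Those tested, meaning at least 1 TPM in at least 3 libraries, numbered 130 of 145, with a median of 6.04 TPM over the 6 libraries against 28.1 TPM for all tested genes and 10.6 TPM for the tested ZNF genes elsewhere. Together the 145 members made up 0.121% of the listed total. Their summed level was 1164, 1169 and 1359 TPM with the empty vector and 1169, 1152 and 1252 TPM with CES2, so the groups overlapped. The plot of levels in chromosome order shows 11 members at 20 TPM or more.

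**Figure D1:**
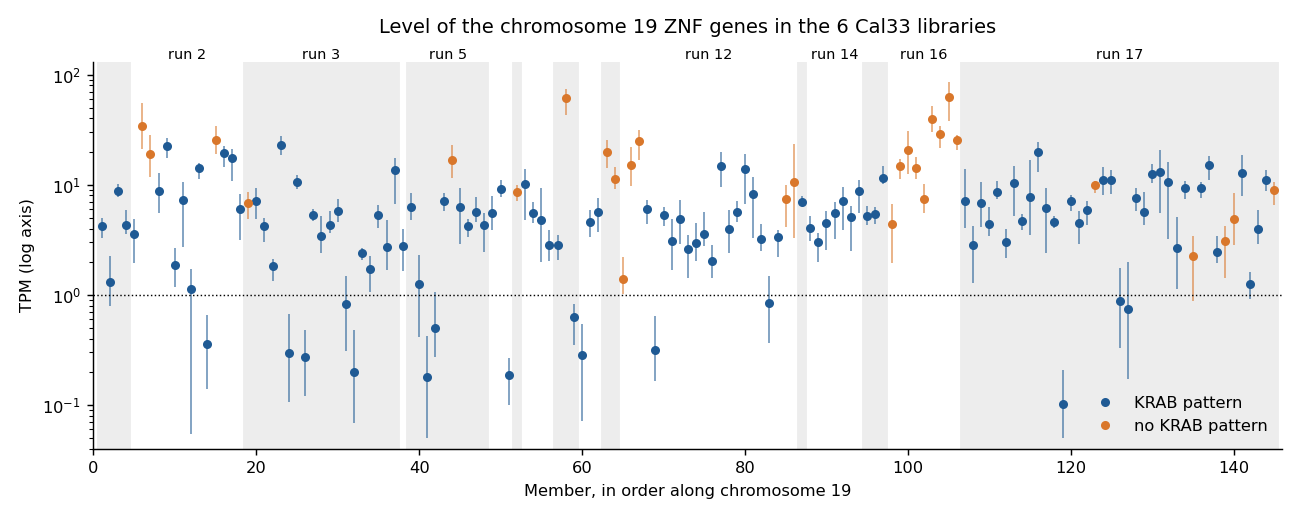
Level of each of the 145 members in TPM (log axis), in order along chromosome 19. Points are the mean of the 6 libraries, vertical lines run from the lowest to the highest library (values under 0.05 TPM, including those listed as blank, are drawn at 0.05), blue marks members with a KRAB-type pattern and orange those without. The dotted line is 1 TPM and shading alternates between runs of neighbouring members; 8 of the 10 highest members are orange.

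Members without the KRAB pattern were the more abundant class. Their median was 14.5 TPM (28 tested) against 5.55 TPM for those with it (102 tested). In each library the order was the same, with class medians of 10.7 to 16.7 TPM without the pattern and 4.86 to 5.88 TPM with it. Members of different classes are different genes and not replicates, so this order is a description and was not tested. The ZNF genes of other chromosomes had medians of 17.5 TPM without the pattern and 7.69 TPM with it.

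The highest member was ZNF787, at 37.9, 73.9 and 67.9 TPM with the empty vector and 59.8, 52.5 and 84.9 TPM with CES2. ZNF146, a protein made almost wholly of fingers, was next, at 53.6, 74.3 and 58.8 TPM with the empty vector and 64.5, 42.9 and 71.9 TPM with CES2. In both genes the groups overlapped. ZNF580, ZNF358, ZNF581, ZNF121, ZNF444 and ZNF428, none with the pattern, followed with means over the 6 libraries of 25.1 to 39.2 TPM. The 2 highest members with a KRAB pattern were ZNF440 and ZNF317, with 24.1 ± 3.41 and 23.8 ± 4.41 TPM with the empty vector and 21.5 ± 2.64 and 21.3 ± 4.29 TPM with CES2 (mean ± SD, n = 3 each). The listed transcripts of ZNF580 and ZNF581 overlap on the same strand, and 21.1% of the 50-base stretches of the former also occur in another gene. For ZNF358 that share was 60.5%. How the reads of these genes were assigned is thus uncertain.

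Several members with a described function were at middle or low levels. ZNF91, which binds SVA retrotransposons and keeps them silent, was at 7.87, 3.86 and 5.47 TPM with the empty vector and 4.96, 5.46 and 5.82 TPM with CES2. ZNF274, which brings SETDB1 to the 3′ ends of zinc finger genes, was at 7.64, 10.5 and 10.7 TPM with the empty vector and 10.5, 8.79 and 8.26 TPM with CES2. ZNF224, a repressor of the aldolase A gene, was at 16.0 ± 3.79 TPM with the empty vector and 13.6 ± 3.44 TPM with CES2, and ZNF304 was at 9.21 ± 1.40 and 8.00 ± 0.537 TPM (mean ± SD, n = 3 each). The groups overlapped in all 4 of these genes.

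ZNF154, ZNF671 and ZNF132 lie in the last run of the chromosome and are known from many carcinomas as genes whose promoters become methylated. ZNF154 was at 0.589, 0.844 and 1.74 TPM with the empty vector and 0.328, 0.357 and 1.44 TPM with CES2. ZNF671 was at 0.486, 0.348 and 1.99 TPM with the empty vector and 0.330, 0.172 and 1.15 TPM with CES2. Both were highest in the third library of each group, and neither reached the level needed for the test. ZNF132 was at 1.34 ± 0.382 TPM with the empty vector and 1.16 ± 0.126 TPM with CES2 (mean ± SD, n = 3 each). ZNF177 was at 1.65, 1.32 and 0.885 TPM with the empty vector and 0.0542, 1.71 and 1.23 TPM with CES2. In the first CES2 library, where ZNF177 was lowest, the read-through entry ZNF559-ZNF177 that runs across it had its highest value, 1.93 TPM. Of the 50-base stretches of ZNF177, 96.5% occur in another gene. How reads were split between these entries was not tested. Of the 15 members below the test level, all carried the KRAB pattern, with means of 0.103 TPM (ZNF549) to 0.884 TPM (ZNF154).

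A 16-letter word recurs in the promoters of some members and in few other promoters. RefSeq windows of 300 bases, from 250 before to 50 after the gene start (GRCh38.p14), were matched by symbol for 131 of 145 members. The 16-letter word ACTACANNNCCCAGAA, with N for any base and both strands searched, was in the windows of 19 of the 131, or 14.5%. It was in 132 of all 27305 genes with a window (0.483%), in 5 of 670 other chromosome 19 genes (0.746%) and in 5 of 181 ZNF genes of other chromosomes (2.76%). The word resembles the site of the transcription factor ZNF143. It is the end of the longest stretch, of 20 letters, that the windows of ZNF587 and ZNF749 share, with letters 7 to 9 left free, so those windows hold it by construction. The promoters of duplicated genes are not independent of each other, a match is not evidence of binding, and no test was made.

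Of the 19 members with the word, 17 lay in 2 stretches of the chromosome. In the run from ZNF575 to ZNF296, 9 of 18 members with a window held the word, and all 10 sites there had TCCC at letters 9 to 12. In 8 of these 9 genes the word was on the strand opposite to the gene. In the run from ZNF264 to ZNF446, 8 of 36 members held it, all on the strand of the gene, and 6 of the 9 sites had TACCC at letters 8 to 12; those of ZNF549, ZNF773 and ZNF776 had neither form. The other two members with the word lie elsewhere, ZNF599 with TACCC and ZNF546 with TCCC at these letters. The exact word ACTACATTACCCAGAA occurred in 8 of the 27305 genes, and 6 of the 8 were members. The stretches below show 3 sites with TCCC and 5 with TACCC, each read along the strand that holds the word, with the word in capitals and 10 bases on either side.
ZNF224 (chr19:44094260-44094275, minus strand): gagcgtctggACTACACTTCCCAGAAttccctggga
ZNF234 (chr19:44141528-44141543, minus strand): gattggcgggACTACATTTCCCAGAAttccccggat
ZNF284 (chr19:44072091-44072106, minus strand): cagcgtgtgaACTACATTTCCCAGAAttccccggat
ZNF586 (chr19:57769541-57769556, plus strand): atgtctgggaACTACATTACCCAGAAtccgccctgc
ZNF587B (chr19:57830168-57830183, plus strand): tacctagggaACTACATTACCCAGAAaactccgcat
ZNF814 (chr19:57889148-57889163, minus strand): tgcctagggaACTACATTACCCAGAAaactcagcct
ZNF749 (chr19:57435179-57435194, plus strand): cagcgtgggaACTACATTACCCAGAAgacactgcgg
ZNF749 (chr19:57435228-57435243, plus strand): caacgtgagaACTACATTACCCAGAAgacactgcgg

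The coordinates are those of the capitals. All 21 sites lay upstream, with the word beginning, read along the gene, 26 to 161 bases before the RefSeq gene start. That start was within 100 bases of the start of the listed transcript in 107 of the 131 members. Among members with the word it was 10558 bases away in ZNF587B, 1593 in ZNF235 and 1218 in ZNF225, so their windows may not belong to the transcript listed. A second word, CCGGAAGT, the core of sites of ETS factors, was in 33 of 131 member windows (25.2%) and in 4.95% of all genes with a window. It was in 29 of 181 ZNF genes of other chromosomes (16.0%) and in 48 of 670 other chromosome 19 genes (7.16%). In the last run it was in 21 of 36 (58.3%). The 17 tested members with the 16-letter word had a median level of 5.61 TPM and a median log2 fold change of -0.11, and the 101 tested without it had 6.29 TPM and -0.08.

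The main comparison asks whether ZNF genes differed between cells with CES2 and cells with the empty vector. None of the 130 tested members passed an adjusted p of 0.05 (limma on log2(TPM + 1), Benjamini-Hochberg over 12210 genes), where 0.00819% of all tested genes passed. The lowest adjusted p of a member was 0.9998. At an unadjusted p under 0.05 there were 2 members, or 1.54%, against 1.09% of all tested genes. One was higher, against 0.59% of all tested genes, and one lower, against 0.5%. The count of 2 was 0 without the first CES2 library or without the third Vector library. It was 1 without the first Vector library, with a GC trend removed or with quantile normalization, and 5 with library weights. The weight was 6.86 for the first CES2 library and 0.513 to 1.12 for the others. Every weighted value given here thus rests mostly on that library on the CES2 side. The standard error of a member's log2 fold change had a median of 0.28, and a missed threshold does not show that a member stayed the same.

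The 2 members were ZNF587 and ZNF749, KRAB zinc finger genes that lie in the last run of the chromosome and differed in opposite directions. ZNF587 (chr19:57849857-57865112, plus strand, 3 exons) was at 12.5, 13.2 and 16.1 TPM with the empty vector and 3.24, 12.5 and 6.34 TPM with CES2. The groups were apart by a narrow margin, since the second CES2 library lay just under the first Vector library. By limma the log2 fold change was -0.99 ± 0.40 (SE, unadjusted p = 0.0366, adjusted p = 0.9998). It was -0.58 without the first CES2 library and -1.65 with library weights.

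ZNF749 (chr19:57435329-57445485, plus strand, 3 exons) was at 3.49, 5.38 and 5.58 TPM with the empty vector and 16.7, 9.15 and 5.94 TPM with CES2. The first CES2 library was the highest and the third barely above Vector. By limma the log2 fold change was 0.91 ± 0.37 (SE, unadjusted p = 0.0374, adjusted p = 0.9998), 0.55 without the first CES2 library and 1.43 with library weights. An exact permutation test over the libraries, two-sided, gave p = 0.1 for either gene, which is as low as 3 against 3 can go. Their 300-base promoter windows are shown whole because they are the members with the smallest p in each direction, with the 16-letter word in capitals; ZNF749 holds it in 2 places.
ZNF587 (GRCh38.p14, chr19:57849609-57849908, plus strand): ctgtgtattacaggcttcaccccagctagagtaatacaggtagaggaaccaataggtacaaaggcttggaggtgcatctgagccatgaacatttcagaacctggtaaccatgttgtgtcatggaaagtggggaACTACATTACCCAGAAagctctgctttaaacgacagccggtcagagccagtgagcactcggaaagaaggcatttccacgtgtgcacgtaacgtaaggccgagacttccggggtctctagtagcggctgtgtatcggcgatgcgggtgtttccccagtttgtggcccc
ZNF749 (GRCh38.p14, chr19:57435075-57435374, plus strand): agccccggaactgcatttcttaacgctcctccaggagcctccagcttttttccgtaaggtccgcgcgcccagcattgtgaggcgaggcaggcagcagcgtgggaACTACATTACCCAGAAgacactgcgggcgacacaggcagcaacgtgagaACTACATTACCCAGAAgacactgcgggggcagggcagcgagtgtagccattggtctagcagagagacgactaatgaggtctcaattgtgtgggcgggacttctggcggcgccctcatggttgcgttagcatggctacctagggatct

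Part of the ZNF587 transcript is shared with near copies, so how its reads were assigned is uncertain. Of the 50-base stretches of its listed transcript, 20.6% occur in a gene elsewhere, mostly ZNF417, and 37.9% occur in any other gene once overlapping ones are counted. Its close relative ZNF587B was at 5.57, 15.6 and 20.8 TPM with the empty vector and 10.6, 6.43 and 19.7 TPM with CES2, a different order of libraries. ZNF417 was at 10.9, 8.40 and 9.99 TPM with the empty vector and 9.96, 8.85 and 7.49 TPM with CES2. Summed over ZNF587, ZNF587B, ZNF417, the overlapping ZNF814 and the read-through entry AC010522.1, a sum chosen after the values were seen, the level was 35.3, 43.0 and 54.9 TPM with the empty vector and 27.9, 34.3 and 41.2 TPM with CES2, with overlapping groups. ZNF749 shares 0.355% of its stretches with another gene, although the entry AC003002.2 spans it on the same strand, with a log2 fold change of 0.06. AC003002.2 also overlaps ZNF548 and ZNF17 on that strand. The sum of ZNF749, ZNF548, ZNF17 and AC003002.2 ran from 20.3 to 31.5 TPM with the empty vector. With CES2 that sum ran from 28.1 to 39.7 TPM, so the groups overlapped here too. How reads were split between AC003002.2 and these genes was not tested.

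The other members with groups that did not overlap had smaller differences. In all, 2 members were higher in every CES2 library than in any Vector library (1.54%, against 1.07% of all tested genes) and 5 were lower (3.85%, against 2.63%). The total of 7 (3.7% of all tested genes do not overlap in either direction) was 3 after quantile normalization and 3 after a GC trend was removed. ZNF473, a component of the histone mRNA 3′ end processing machinery, was at 6.48, 6.54 and 6.45 TPM with the empty vector and 7.93, 6.88 and 7.46 TPM with CES2. It was the steadiest of the tested members within groups, and its log2 fold change was 0.17 ± 0.22 (SE). ZNF738 was at 6.02, 7.76 and 5.80 TPM with the empty vector and 4.79, 5.05 and 4.56 TPM with CES2, a log2 fold change of -0.37 that was -0.22 with a GC trend removed. ZNF507 was at 8.76, 9.59 and 10.0 TPM against 8.68, 7.14 and 7.14 TPM, a log2 fold change of -0.28 that was -0.15 with a GC trend removed and -0.16 with library weights. ZNF432 had a log2 fold change of -0.30, which was -0.17 without the second CES2 library or with library weights and -0.18 with a GC trend removed. ZNF761 had -0.21, which was -0.08 without the first Vector library, and its lowest Vector value, 10.9 TPM, stood beside a highest CES2 value of 10.7 TPM.

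Next in order of p came 3 members with overlapping groups. ZNF460 was at 8.18, 6.10 and 10.7 TPM with the empty vector and 4.13, 6.13 and 5.84 TPM with CES2 (log2 fold change -0.53, unadjusted p = 0.0893 by limma, and a log2 fold change of -0.85 with library weights). ZNF431 was at 9.28, 5.23 and 8.42 TPM with the empty vector and 2.92, 8.87 and 3.00 TPM with CES2 (log2 fold change -0.66, unadjusted p = 0.143 by limma). It was -0.43 without the first CES2 library, -1.10 without the second and -1.04 with library weights. ZNF584 was at 9.62, 14.5 and 7.93 TPM with the empty vector and 18.8, 11.5 and 14.5 TPM with CES2 (log2 fold change 0.46, unadjusted p = 0.145 by limma). It was 0.29 without the first CES2 library or without the third Vector library, and 0.81 with library weights. The plot of these members by library shows the 3 libraries of each group side by side.

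**Figure D2:**
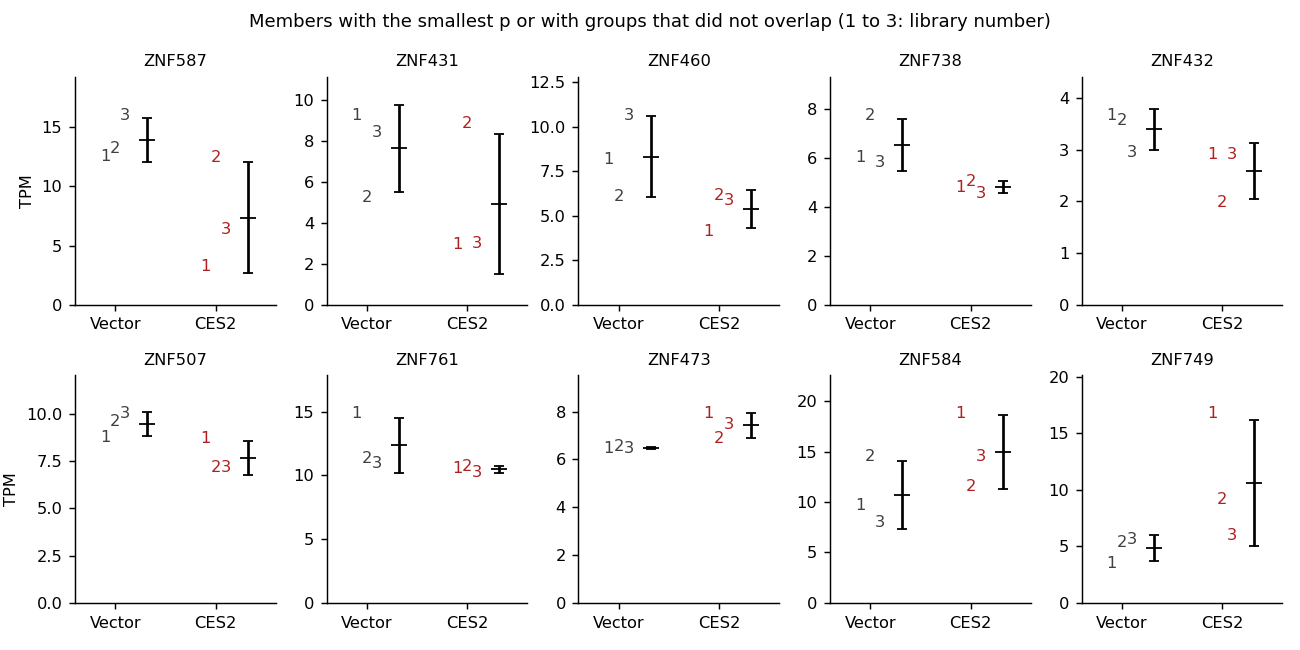
TPM of the 10 members with the smallest p or with groups that did not overlap. Digits mark the 3 libraries of each group at their values, and the bars give mean ± SD (n = 3); each vertical axis starts at 0. ZNF587 runs from 3.24 to 12.5 TPM within CES2, while ZNF473 stays between 6.45 and 6.54 TPM within Vector.

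Across the tested members the differences were small. Of 130, 125 had a log2 fold change within 0.5 of 0. The median was -0.08, with 86 of 130 below 0 (66.2%), beside a median of -0.06 and 63.7% below 0 over every tested gene. ZNF genes of other chromosomes had a median of -0.10 with 68.4% below 0, and the other genes of chromosome 19 had 0.04 with 39.7% below 0. Without the third Vector library the members' median was -0.001 and that of all tested genes was -0.003. Median rescaling, which brought all tested genes to a median of 0.002, gave the members -0.03.

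The medians of the 2 protein classes lay on different sides of 0, but both were below 0 with library weights, without the first Vector library and without the third CES2 library. Members with the KRAB pattern had a median log2 fold change of -0.11, with 74 of 102 below 0, and those without had 0.04, with 12 of 28 below 0. Between libraries of a group, the difference in median deviation of the 2 classes had an SD of 0.18. That is a spread of single libraries and not the error of a difference between groups. The difference between the class medians of log2 fold change was -0.15. It was 0.001 with library weights, -0.02 without the first Vector library, -0.05 without the third CES2 library and -0.24 without the first CES2 library. The GC content of the listed transcripts moved with the classes, at a median of 46.2% with the pattern and 62.3% without. After a GC trend was removed from each library the class medians were -0.04 and 0.03. In the main fit the ZNF genes of other chromosomes had medians of -0.10 with the pattern and -0.09 without, with 68.0% and 68.8% below 0.

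Within bands of GC content the members' medians were lowest between 40 and 50% and highest at 60% or more. At 40 to 45% GC the 35 tested members had a median log2 fold change of -0.15 (every tested gene in the band, -0.10), at 50 to 60% the 28 had -0.03 (all -0.03), and at 60% or more the 20 had 0.11 (all 0.03). Spearman's rho between log2 fold change and GC was 0.329 across the 130 members and 0.301 across 12205 genes, where the points share their libraries and no p is given. The part of GC content in the class difference was not tested beyond the values with the trend removed.

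**Figure D3:**
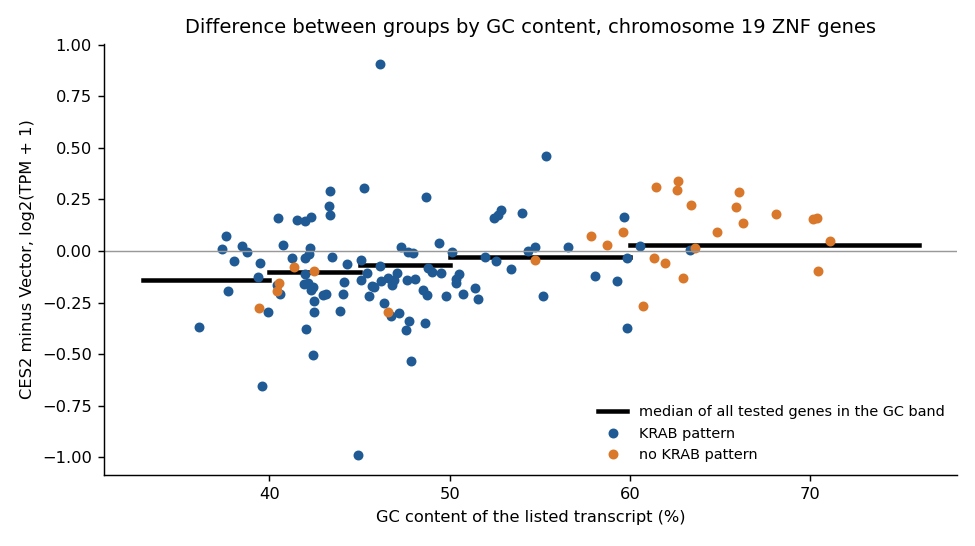
Difference between CES2 and Vector on the log2(TPM + 1) scale against the GC content of the listed transcript for the 130 tested members (blue with the KRAB pattern, orange without). Black bars give the median over every tested gene in a GC band, rising from -0.14 below 40% to 0.03 at 60% or more; most orange points sit at the high end.

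The within-group SD of log2(TPM + 1) had a median of 0.303 over the tested members and 0.311 over all tested genes. Among genes at 1 to 5 TPM it was 0.293 for 48 members and 0.418 for 1597 genes. At 20 TPM or more it was 0.321 for 11 members and 0.278 for 7364 genes. Over the members, Pearson correlations of libraries were 0.843 to 0.913 within a group and 0.810 to 0.935 between groups. The largest SD, 1.01, belonged to ZNF296, at 3.28, 12.6 and 12.4 TPM with the empty vector and 5.28, 6.44 and 23.4 TPM with CES2. ZNF587B (0.828), ZNF227 (0.723) and ZNF419 (0.722) followed. ZNF419 was at 9.35, 6.86 and 2.38 TPM with the empty vector and 6.67, 8.11 and 3.25 TPM with CES2, lowest in the third library of each group, and 25.7% of its stretches occur in ZNF773.

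The listed transcripts of members also differ in how much sequence they share with other genes. Of the 145 members, 15 had over 10% of the 50-base stretches of their listed transcript in a gene elsewhere. ZNF443 led (34.9%, mostly ZNF799), and 60 had none. The listed transcripts of 51 members hold no finger, so their shares may leave out finger sequence of the gene. Across the tested members Spearman's rho between the share of the listed transcript and the within-group SD was 0.009. How sharing over whole genes relates to the SD was not tested. ZNF799, with 28.2% shared, stayed between 2.06 and 2.64 TPM in the 6 libraries.

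The libraries differed in the level of the members as a set. The third Vector library was the highest of the 6 in 42 of 130 members (32.3%) and in 28.9% of all tested genes. Its median deviation from the gene means was 0.18 log2 units over the members and 0.14 over all tested genes. In the other Vector libraries the members' median deviation was 0.04 and -0.04, and in the CES2 libraries it was -0.03 in each. The classes parted in 2 libraries. In the first Vector library the median deviation was 0.09 with the KRAB pattern and -0.15 without, and in the third CES2 library it was -0.10 with and 0.26 without.

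**Figure D4:**
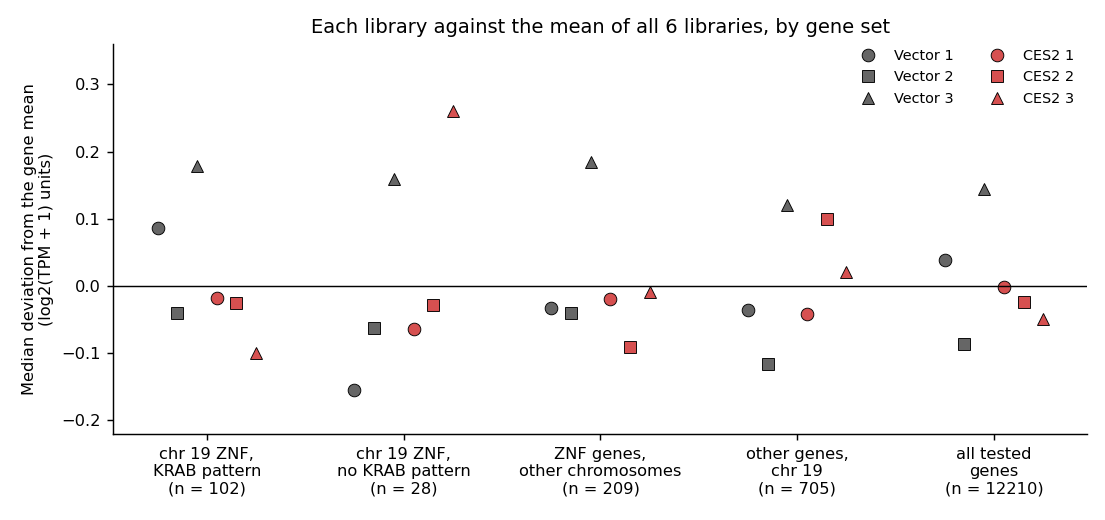
Median deviation of each library from the gene means, in log2(TPM + 1) units, for 5 gene sets, with Vector in grey and CES2 in red and the marker shape giving the library number. The third Vector library is above 0 in every set, at 0.12 to 0.18, and the third CES2 library is at 0.26 in members without the KRAB pattern and at -0.10 in those with it.

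Along the chromosome the members formed 17 runs, where a new run begins after a gap of over 1 Mb. The largest runs were the last, from ZNF264 to ZNF446 (39 members, chr19:57191500-58481228), ZNF575 to ZNF296 (22 members, chr19:43525497-45076588) and ZNF653 to ZNF791 (19 members, chr19:11483427-12631921). The highest median level was in the run from ZNF628 to ZNF444 (20.7 TPM, 9 members, chr19:55476332-56147181), in which no member had the KRAB pattern and the median GC content was 66.1%. Of the 15 members below the test level, 4 lay in the run from ZNF653 to ZNF791.

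The run from ZNF628 to ZNF444 also had the highest median difference, on the log2 scale, among runs with at least 2 tested members, at 0.14, with 8 of 9 members above 0 and a range of -0.10 to 0.28. The groups overlapped in each of its members. Its median deviations were -0.30, -0.09 and 0.12 in Vector and -0.08, 0.10 and 0.24 in CES2. In the run from ZNF575 to ZNF296, 16 of 20 tested members were below 0, with a median of -0.15. Its median deviations were 0.18, -0.02 and 0.13 in Vector and -0.04, 0.09 and -0.27 in CES2. In the last run 22 of 36 were below 0, with a median of -0.09 and the widest range, -0.99 to 0.91. Over every tested gene 63.7% were below 0. At a GC content of 60% or more, 934 of 2171 tested genes were below 0, with a median of 0.03. The part of GC content in the medians of the runs was not tested.

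The differences of neighbours were weakly related. Over 113 pairs of adjacent tested members in the same run, Pearson's r was 0.077 for log2 fold changes and 0.221 for log2 mean levels, as descriptions of genes measured in the same libraries. With members at a mean of at least 5 TPM r was 0.263 for log2 fold changes, and with a GC trend removed it was -0.01.

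**Figure D5:**
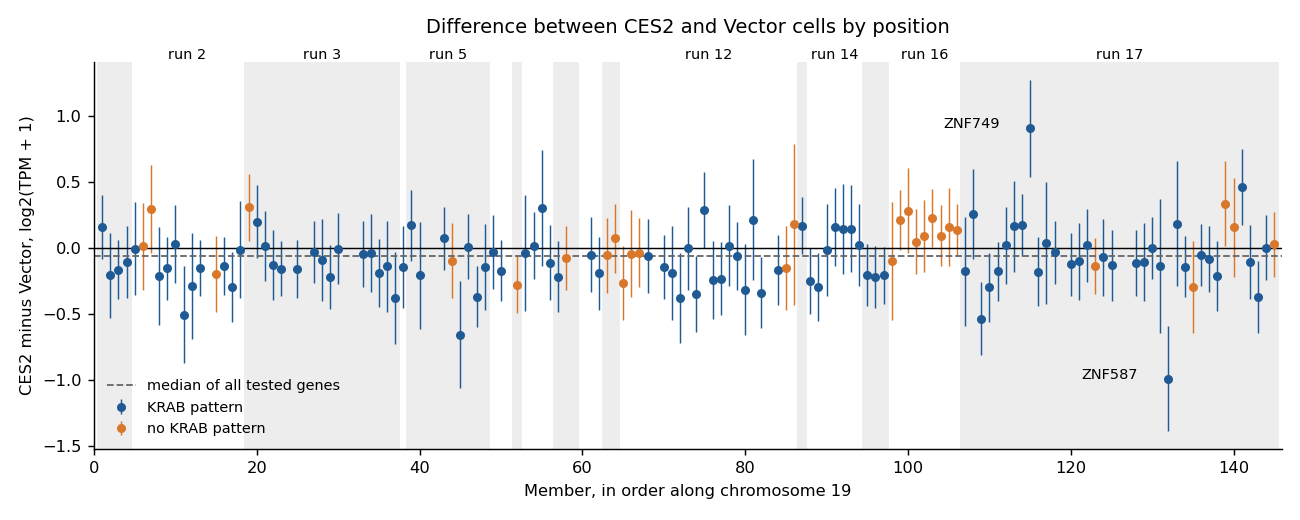
Log2 fold change (CES2 minus Vector, with its standard error) of the 130 tested members in order along chromosome 19, with shading for runs. The dashed line, at -0.06, marks the median over every tested gene; ZNF749 at 0.91 and ZNF587 at -0.99 stand out in the last run, and the orange run from ZNF628 to ZNF444 sits mostly above 0.

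None of the KRAB cofactors and heterochromatin factors examined passed the test. All 25 genes of a list of KRAB cofactors and heterochromatin factors were tested, with means of up to 495 TPM in TRIM28. At an unadjusted p under 0.05 there were 0 (limma), against 1.09% of all tested genes. Of the 25, 19 had a log2 fold change below 0, against 63.7% over every tested gene, and the median was -0.08 against -0.06. TRIM28, the corepressor that binds the KRAB domain, was at 258, 604 and 603 TPM with the empty vector and 416, 331 and 757 TPM with CES2, with a log2 fold change of 0.05 that turned negative without the first Vector library (-0.36), without the third CES2 library (-0.29) and with library weights (-0.17). SETDB1 was at 33.1, 25.6 and 39.7 TPM with the empty vector and 27.7, 34.4 and 26.4 TPM with CES2. SMARCAD1, a chromatin remodeller that works with TRIM28, was the cofactor whose groups did not overlap, at 16.0, 16.5 and 16.8 TPM with the empty vector and 15.1, 10.8 and 14.8 TPM with CES2, a log2 fold change of -0.27 ± 0.22 (SE). It was -0.13 without the second CES2 library, -0.12 with a GC trend removed and -0.16 with library weights, and 2.63% of all tested genes were likewise lower in every CES2 library.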

How the data were processed

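RNA was measured in 6 libraries, 3 per group, after ribosomal RNA removal from 3 ug of total RNA and strand-specific preparation, per the labels' protocols. The deposited values are TPM, identified from the values because each column sums to between 999804 and 999893; the authors' filters, annotation and strand handling were not given in the sources used here. HISAT2 2.1.0, StringTie 1.3.3, edgeR 3.0.8 and GRCh38 appear, with no role, in the submitters' processing notes. Whether a value belongs to the gene or to its 1 listed transcript is not given either, and 51 listed member transcripts hold no finger. Blank cells were read as 0 (2 members, 607 entries). All 145 members had GENCODE 29 coordinates. Columns belonging to no sample numbered 0.

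Genes at 1 TPM or more in at least 3 libraries were compared by limma 3.58.1 (R 4.3.3) on log2(TPM + 1) with an intensity trend, group as the only term and Benjamini-Hochberg adjustment over 12210 genes, threshold 0.05. The 1 added to each TPM value understates changes of low genes. The fit was tested on simulated data. Named members are the 10 highest, up to 8 a direction with non-overlapping groups, the 5 smallest p, the 4 largest SD and 9 of 16 with a known role; the other 7 were not analysed here. Members and lists were chosen with earlier results of these data known. Fingers and KRAB patterns were counted by script in GENCODE 29 coding sequences; the KRAB pattern is the core of the KRAB A box, and can miss degenerate boxes. Sharing was counted for the listed transcript of each member against GENCODE 29 transcripts, in stretches of 50 bases, a length set by hand. Overlapping genes on opposite strands, 13 members, cannot be told apart if strand was not used. Python 3.11.15, pandas 2.3.3, scipy 1.17.1 and matplotlib 3.10.9 were used.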

Additional observations from a re-analysis of the deposited data

How the results depend on the processing

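Alternatives were each library left out, the replicate block, pseudocounts of 0.1 and 0.01, 3 other filters, blanks left out, median rescaling, quantile normalization, limma without the trend, library weights, a GC trend removed, and a threshold of 0.1. Chosen after seeing the data were the GC trend removed together with the replicate block, and the median without members sharing over 10% of sequence. The count of members past the threshold stayed 0 in all 20 alternatives, and CES2 passed in all 19 of its own. With each library left out, the members' median log2 fold change ranged from -0.15 to -0.0014, their median within-group SD from 0.278 to 0.325, and the correlation of neighbours from 0.013 to 0.138. That correlation was 0.263 at a mean of at least 5 TPM and -0.010 with the GC trend removed, with or without the replicate block. The number of members with non-overlapping groups fell from 7 to 3 with quantile normalization and to 3 with the GC trend removed. TRIM28 turned from 0.05 to -0.36 without Vector replicate 1, -0.29 without CES2 replicate 3 and -0.17 with library weights, and ranged from -0.36 to 0.30 with 1 library left out. Without Vector replicate 3 SETDB1 turned to 0.0082, in a range from -0.30, and HDAC2 to 0.052, in a range from -0.53; the cause was not tested. With the replicate block 0 members passed and 1, in place of 2, was under an unadjusted p of 0.05. Deviations of same-numbered libraries of the 2 groups correlated at 0.145, -0.52 and 0.375, so the numbers were not taken to pair the samples. Those of differently numbered libraries ran from -0.68 (Vector 1 and CES2 3) to 0.68 (Vector 1 and CES2 2), and the cause was not tested. TPM keeps no depth, so no detection limit can be given for the low members.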
